A study of Mus musculus with 32 samples.

Results

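Glycosylation was followed at the neuromuscular junction (NMJ) through 6 genes: Gfpt1, Dpagt1, Alg2, Alg14, Gmppb and B4galnt2. They were chosen by name, 6 of 24952 genes in the deposited tables, because the first 5 are genes of congenital myasthenic syndromes and the last makes a synaptic glycan. Of the 6, 5 passed the filter on low counts (a minimum of 1 CPM, counts scaled to 1000000 per library, in 8 or more libraries) and were among 13990 genes tested. B4galnt2 did not pass and is given by its reads only.

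The libraries came from the tibialis anterior (TA) muscle of wild-type male C57BL/6JRj mice, which were housed singly on AIN93M diet for 2 to 3 months in the group aged 10 months and for 16 months in the group aged 30 months. Each muscle was stained with α-bungarotoxin, a toxin that binds acetylcholine receptors, then frozen and sectioned, and many stained (NMJ) or unstained (xNMJ) spots were cut out of the sections by laser for each library. The age and region define 4 groups, named 10m xNMJ and 10m NMJ for the younger and 30m xNMJ and 30m NMJ for the older mice, with 8 libraries in each, made with a SMART-Seq v4 kit for very small amounts of RNA. Library totals ran from 4026648 to 16516788 counts, with group medians, in that order, of 6062117, 9605869, 6790011 and 9825357. The labels do not say which animal a library came from, so p-values measure the spread between libraries. A captured spot holds several cell types, so that fewer cells of a type and less RNA per cell cannot be told apart.

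Sugar chains are built before they are attached. GFPT1 is the rate-limiting enzyme of the hexosamine pathway, which makes UDP-GlcNAc. DPAGT1 places the first sugar on the lipid dolichol, ALG14 with ALG13 adds the next, and ALG2 adds mannoses, after which oligosaccharyltransferase moves the finished chain to asparagines of proteins such as the acetylcholine receptor subunits. GMPPB makes GDP-mannose, which also feeds the O-mannosylation of dystroglycan, and B4GALNT2 caps glycans with N-acetylgalactosamine and is known from the synaptic membrane of mouse muscle. Loss of function of the human genes GFPT1, DPAGT1, ALG2, ALG14 and GMPPB causes limb-girdle forms of congenital myasthenia.

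On GRCm38, GENCODE M21 places Gfpt1 (ENSMUSG00000029992) at chr6:87042846-87092197 on the plus strand, with 4 coding transcripts of support level 1 to 3. One of these, Gfpt1-201, holds a coding exon of 48 bases (its exon 9, chr6:87060785-87060832) that the longest transcript skips. A muscle form of GFPT1 with an extra exon is known, and it is shown because gene-level counts add the forms with and without the exon and cannot tell them apart. The exon is in capitals, with 15 bases of the neighbouring exons on each side.
Gfpt1 exon 9 of Gfpt1-201: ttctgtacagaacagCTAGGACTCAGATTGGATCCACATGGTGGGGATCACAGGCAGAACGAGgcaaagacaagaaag

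Start regions from RefSeq on GRCm38.p6, from 250 bases before to 50 bases after the start, were held for 3 of the 6 genes. Those of Gfpt1 (chr6:87042596-87042895, plus strand) and Alg14 (chr3:121291490-121291789, plus strand) are shown because these genes had the largest differences between regions at 10 months. Capitals mark E-boxes (CANNTG, which reads the same on both strands), the motif of myogenic bHLH factors. Each sequence holds 1, as do 72.3% of 32851 start regions at least once. The N-box (CCGGAA on either strand), known from synaptic promoters, is in 14.9% of start regions and its letters are not in the windows of Gfpt1, Alg14 or B4galnt2.
Gfpt1: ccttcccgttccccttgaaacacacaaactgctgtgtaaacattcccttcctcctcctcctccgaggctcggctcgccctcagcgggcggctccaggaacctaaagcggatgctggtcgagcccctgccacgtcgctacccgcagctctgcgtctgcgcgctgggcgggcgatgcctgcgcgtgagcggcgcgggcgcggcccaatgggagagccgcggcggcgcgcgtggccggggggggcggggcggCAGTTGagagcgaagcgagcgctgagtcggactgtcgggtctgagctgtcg
Alg14: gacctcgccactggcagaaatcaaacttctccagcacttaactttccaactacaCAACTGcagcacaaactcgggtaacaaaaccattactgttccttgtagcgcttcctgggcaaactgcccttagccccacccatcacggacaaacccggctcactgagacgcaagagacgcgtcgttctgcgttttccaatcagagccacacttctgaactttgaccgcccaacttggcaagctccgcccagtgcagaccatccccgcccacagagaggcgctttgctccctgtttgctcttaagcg

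The other genes lie at chr9:44326019-44333900 on the plus strand (Dpagt1, ENSMUSG00000032123), chr4:47465067-47474333 on the minus strand (Alg2, ENSMUSG00000039740), chr3:121291773-121363094 on the plus strand (Alg14, ENSMUSG00000039887), chr9:108049242-108052801 on the plus strand (Gmppb, ENSMUSG00000070284) and chr11:95865943-95914891 on the minus strand (B4galnt2, ENSMUSG00000013418). The kit does not mark strand. Exons of Gmppb share 937 bases with Rnf123 on the opposite strand, and exons of B4galnt2 share 263 bases with the antisense gene Gm11534, and reads from the shared bases cannot be told apart.

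Stained and unstained regions were first compared by markers. All 8 genes of a list of subsynaptic nuclei, which includes the acetylcholine receptor subunit Chrne and the kinase Musk, were higher in NMJ than in xNMJ at both ages. Their normalised CPM summed to 87.7 ± 36.6 in xNMJ and 3373 ± 682 in NMJ at 10 months, and to 186 ± 274 and 3654 ± 615 at 30 months (mean ± SD, n = 8 each), with Prkar1a the most abundant gene in every group. One library labelled xNMJ stood apart: replicate 5 of 30m xNMJ had a sum of 861, against 64.6 to 128 in the other 7. In 10m xNMJ, replicate 7 had a sum of 174, against 62.7 to 93.3 in the others. One of the 8 markers, Etv5, a transcription factor of synaptic nuclei, was higher at 30 than at 10 months outside the junction, with a log2 difference of 4.61 ± 0.87 (edgeR, adjusted p = 0.0309). Replicate 5 of 30m xNMJ held 1236 of its reads, against 1 to 83 in the other 7, and without it, in a fit added after seeing the data, the value was 2.67 ± 0.64 and did not pass (edgeR, adjusted p = 0.104).

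Other cells moved with the stain. Schwann cell markers summed to 19.3 ± 7.93, 304 ± 31.9, 25.3 ± 14.9 and 251 ± 34.6 CPM in 10m xNMJ, 10m NMJ and the same regions at 30 months, and 7 of 8 were higher in NMJ at both ages, with Pmp22 the most abundant gene in 10m NMJ and in both groups at 30 months. Fibroblast markers, led by Gsn in 10m xNMJ and by Dcn elsewhere, summed to 336 ± 114, 1437 ± 203, 264 ± 96.7 and 1336 ± 265 CPM, with 5 of 6 higher in NMJ at 10 months and 4 of 6 at 30 months. Macrophage markers, led by Csf1r in xNMJ and Mrc1 in NMJ, summed to 13.6 ± 8.26, 120 ± 58.0, 19.1 ± 22.8 and 92.1 ± 27.8 CPM, with 4 and 3 of 6 higher, and Adgre1 had no read in 30m xNMJ. Muscle fibre markers, led by Tnnt3, were abundant in all libraries but lower in NMJ for 5 of 8 genes at both ages, with sums of 129672 ± 32177, 75673 ± 8587, 125677 ± 23649 and 72987 ± 10215 CPM. Endothelial markers, led by Flt1, summed to 170 ± 62.9, 105 ± 18.9, 170 ± 31.3 and 89.9 ± 17.3 CPM, with 1 of 6 lower in NMJ at 10 months and 2 at 30 months. Satellite cell markers summed to 18.9 ± 8.19, 64.0 ± 21.4, 16.0 ± 6.26 and 45.8 ± 16.3 CPM, nearly all of it Sdc4 in NMJ, and 1 of 3 tested genes was higher at both ages while Myf5 and Calcr did not pass the filter. The part of these cell types in the values below was not tested.

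Gfpt1 was higher at the NMJ than outside it at both ages. In normalised CPM (counts on library sizes with TMM factors), its lowest, median and highest values were 8.73, 11.6 and 32.8 in 10m xNMJ, against 20.1, 31.4 and 63.1 in 10m NMJ. All 8 NMJ libraries lay above the xNMJ median, but the groups overlapped, since only 2 lay above the highest xNMJ library. That library was replicate 7, the one with the raised synaptic marker sum, and the next highest in its group had 20.8 CPM.

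At 30 months the lowest, median and highest values were 4.54, 15.1 and 29.9 CPM in 30m xNMJ, against 29.1, 37.6 and 62.8 CPM in 30m NMJ. Here 7 of 8 NMJ libraries lay above every xNMJ library. Replicate 5 of 30m xNMJ, with the highest synaptic marker sum of its group, had 12.7 CPM of Gfpt1, below the median of its group.

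**Figure D1:**
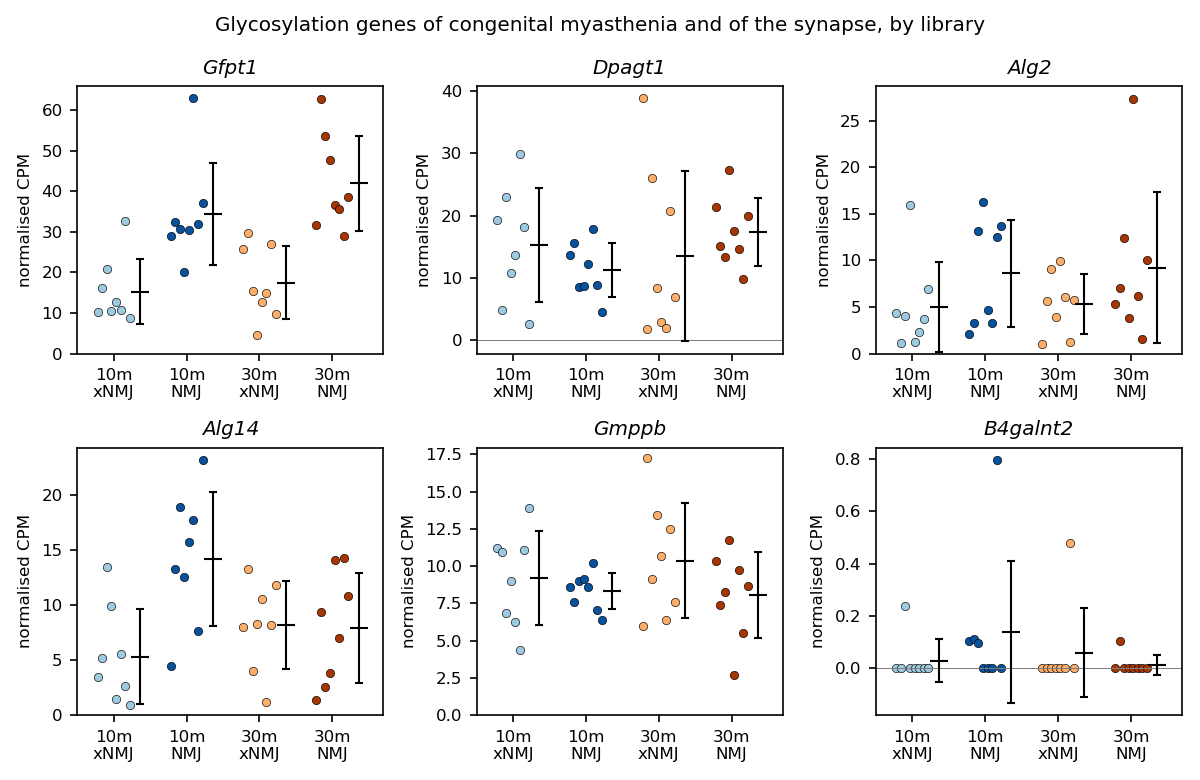
Normalised CPM of the 6 genes (vertical axis, a scale for each gene) in every library of the 4 groups (horizontal axis); points are libraries, and bars at their right are the mean and SD of 8. The NMJ points of Gfpt1 sit mostly above its xNMJ points at both ages, with group means of 15.3 and 34.4 CPM at 10 months and 17.5 and 42.0 CPM at 30 months.

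By edgeR's quasi-likelihood test over all 13990 genes, the log2 fold change of Gfpt1 between NMJ and xNMJ was 1.16 ± 0.31 (SE) at 10 months, a 2.24-fold difference (edgeR, Benjamini-Hochberg adjusted p = 0.0106). At 30 months it was 1.27 ± 0.31, or 2.40-fold (edgeR, adjusted p = 0.00607). Without replicate 7 of 10m xNMJ the first was 1.43 (edgeR, adjusted p = 0.00174), and without replicate 6 of 10m NMJ, which had the 63.1 CPM, it was 0.98 (edgeR, adjusted p = 0.0378). Without replicate 5 of 30m xNMJ the second was 1.21 (edgeR, adjusted p = 0.0124). Gfpt1 kept an adjusted p under 0.05 at both ages in each of 32 fits that left out 1 library. It was the only one of the 5 tested genes to pass, at either age, where 6.5% of all genes were higher and 5.05% lower in NMJ at 10 months, and 5% higher and 4.25% lower at 30 months.

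Alg14 had the largest fold at 10 months but did not pass. Its lowest, median and highest values were 0.891, 4.29 and 13.5 CPM in 10m xNMJ, against 4.44, 14.5 and 23.2 CPM in 10m NMJ. All 8 NMJ libraries lay above the xNMJ median and 4 above the highest xNMJ library. The log2 fold change was 1.42 ± 0.51 (edgeR, adjusted p = 0.0688), and it had an adjusted p under 0.05 in 5 of 10 other settings, over which the adjusted p ran from 0.00292 to 0.0905. In those 5 settings 8.78% to 20.6% of all genes were higher in NMJ, beside 6.5% in the reported fit. Of 32 fits that left out 1 library, Alg14 passed in 3. These were without replicate 3 (edgeR, adjusted p = 0.0232) or replicate 4 of 10m xNMJ (0.0454), or without replicate 1 of 10m NMJ (0.0429).

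At 30 months the Alg14 values ran from 1.17 over a median of 8.22 to 13.3 CPM in 30m xNMJ, and from 1.39 over 8.19 to 14.3 CPM in 30m NMJ. The groups overlapped almost entirely, and the log2 fold change was -0.05 ± 0.50 (95% interval -1.06 to 0.97, edgeR adjusted p = 0.973). The change of the region effect from 10 to 30 months was -1.46 ± 0.71 on the log2 scale. Its unadjusted p was under 0.05 and its adjusted p was not (edgeR, adjusted p = 0.974), so a difference between the ages was not shown. In NMJ all 8 libraries at 30 months lay below the median at 10 months, and the fitted difference was -0.84 ± 0.50 on the log2 scale (edgeR, adjusted p = 0.9998).

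Dpagt1 varied widely outside the junction. There its lowest, median and highest values were 2.67, 16.0 and 29.9 CPM at 10 months and 1.78, 7.69 and 38.9 CPM at 30 months. In NMJ regions the values were 4.52, 10.5 and 17.8 CPM at 10 months and 9.83, 16.4 and 27.2 CPM at 30 months. The 30m NMJ libraries all lay above the median of 30m xNMJ but none above its highest library, and the NMJ values lay inside the range of the xNMJ values at both ages. The log2 fold changes were -0.45 ± 0.49 (95% interval -1.45 to 0.56) and 0.37 ± 0.49 (-0.64 to 1.37), neither of which passed (edgeR, adjusted p = 0.647 and 0.744). The value at 30 months was 0.82 without replicate 1 and 0.20 without replicate 2 of 30m xNMJ, 1.09 with the replicate block (edgeR, adjusted p = 0.236), and 1.22 and 1.48 with limma on filtered log2(TPM + 1) and log2(TPM + 0.1), where Dpagt1 passed (adjusted p = 0.0304 and 0.0277). In these 2 limma settings the median log2 fold change of all genes was itself 0.53 and 0.75, and 26.6% and 27.2% of all genes were higher.

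Alg2 was split within 10m NMJ. There it ran from 2.07 over a median of 8.60 to 16.3 CPM, with 4 libraries between 12.5 and 16.3 CPM and 4 between 2.07 and 4.73 CPM, and in 10m xNMJ from 1.12 over 3.85 to 16.0 CPM. In 30m xNMJ it ran from 1.03 over 5.74 to 9.91 CPM and in 30m NMJ from 1.60 over 6.65 to 27.4 CPM. The groups overlapped at both ages, with 5 of 8 NMJ libraries above the xNMJ median. The log2 fold changes were 0.79 ± 0.57 (95% interval -0.38 to 1.95) and 0.78 ± 0.57 (-0.38 to 1.94), and neither passed (edgeR, adjusted p = 0.451 and 0.484). Without replicate 4 of 10m xNMJ, which had the 16.0 CPM, the first was 1.34, and without replicate 5 of 30m NMJ, which had the 27.4 CPM, the second was 0.30.

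Gmppb lay in a narrow band in 10m NMJ. It ran from 4.40 over 10.0 to 13.9 CPM in 10m xNMJ, from 6.41 over 8.57 to 10.2 CPM in 10m NMJ, from 5.96 over 9.91 to 17.2 CPM in 30m xNMJ and from 2.69 over 8.46 to 11.7 CPM in 30m NMJ. The groups overlapped, although 7 of 8 NMJ libraries at 10 months and 6 of 8 at 30 months lay below the xNMJ median. The log2 fold changes were -0.15 ± 0.30 (95% interval -0.76 to 0.47) and -0.37 ± 0.30 (-0.98 to 0.25), neither of which passed (edgeR, adjusted p = 0.827 and 0.548).

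B4galnt2 was barely detected. It had 1 read outside the junction and 17 at it at 10 months, and 2 and 1 at 30 months. Of the 17 reads in 10m NMJ, 14 came from replicate 7, at 0.798 CPM, and the other 3 from 1 read each in replicates 1, 2 and 3. In each of the other groups the reads came from 1 library. A count of 0 in a library allows up to 3 counts, or 0.153 to 0.933 CPM depending on the library, for counting error only. No fold and no test are given for B4galnt2.

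Age was compared within each region. None of the 5 tested genes passed in NMJ, where edgeR called 0% of all genes, or in xNMJ, where it called 0.0429%. Of the 5 genes, 0 had an unadjusted p under 0.05 in either region, and DESeq2 and limma on TPM called 0 as well. Over all genes 372 had an unadjusted p under 0.05 in NMJ by edgeR, DESeq2 called 1 and limma on log2(TPM + 1) called 3. In xNMJ 1322 had an unadjusted p under 0.05 by edgeR, which called 6, while DESeq2 called 84 and limma called 0. Gfpt1 changed between the ages by 0.29 ± 0.31 on the log2 scale in NMJ (95% interval -0.34 to 0.91) and by 0.19 ± 0.31 in xNMJ (-0.45 to 0.82). For Dpagt1 the value in NMJ was 0.63 ± 0.49, with 7 of 8 libraries at 30 months above the median at 10 months.

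A difference of the age effect between regions passed for 0 of the 5 genes, in a test that called 0% of all genes (edgeR, with 708 genes at an unadjusted p under 0.05 and 9 called by DESeq2). Gfpt1 had a difference of the 2 region effects of 0.10 ± 0.44 (95% interval -0.79 to 0.99). Alg14 was the only one of the 5 with an unadjusted p under 0.05.

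**Figure D2:**
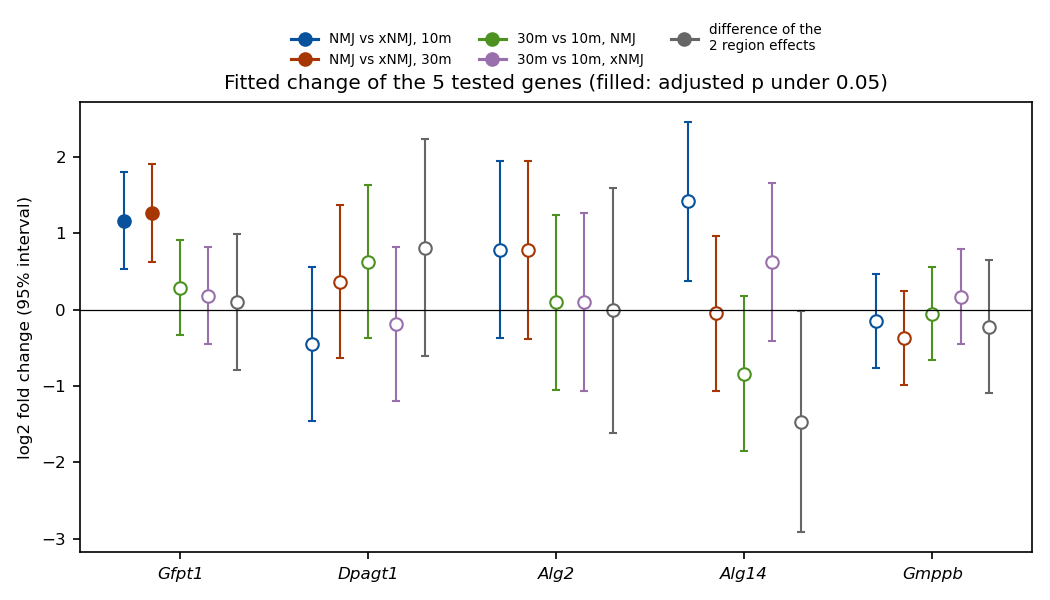
Log2 fold change (vertical axis) with 95% interval for the 5 tested genes (horizontal axis) in 5 comparisons, by colour; filled points have an edgeR adjusted p under 0.05. Only the 2 comparisons of NMJ with xNMJ for Gfpt1, at 1.16 and 1.27, are filled.

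Levels of different genes were compared in TPM, which is scaled for transcript length. In 10m xNMJ the order by mean was Dpagt1 (8.54 ± 5.36 TPM, SD), Gmppb (4.28 ± 1.36), Gfpt1 (4.22 ± 3.11), Alg14 (2.92 ± 2.42), Alg2 (1.79 ± 1.63) and B4galnt2 (0.0185 ± 0.0522). In 10m NMJ it was Alg14 (12.0 ± 6.18), Gfpt1 (10.4 ± 4.27), Dpagt1 (8.14 ± 3.37), Gmppb (5.45 ± 1.03), Alg2 (4.89 ± 3.22) and B4galnt2 (0.115 ± 0.220). Gfpt1 thus went from the third place to the second, and Alg14 from the fourth to the first. In both groups each neighbour in the order, apart from the step to B4galnt2, differed by less than the SD of the difference between the genes within libraries.

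In 30m xNMJ the order was Dpagt1 (7.15 ± 6.62 TPM, SD), Gmppb (4.68 ± 1.52), Alg14 (4.56 ± 2.59), Gfpt1 (3.42 ± 1.89), Alg2 (2.16 ± 1.39) and B4galnt2 (0.0406 ± 0.115). In 30m NMJ Gfpt1 led with 14.9 ± 6.61 TPM, before Dpagt1 (13.4 ± 4.91), Alg14 (6.98 ± 5.03), Alg2 (5.88 ± 4.75), Gmppb (5.71 ± 2.30) and B4galnt2 (0.0121 ± 0.0344). Gfpt1 was above Dpagt1 in 4 of 8 of these libraries, so the first 2 places were not separated. The steps between neighbours other than that to B4galnt2 were again smaller than their SD within libraries at 30 months.

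**Figure D3:**
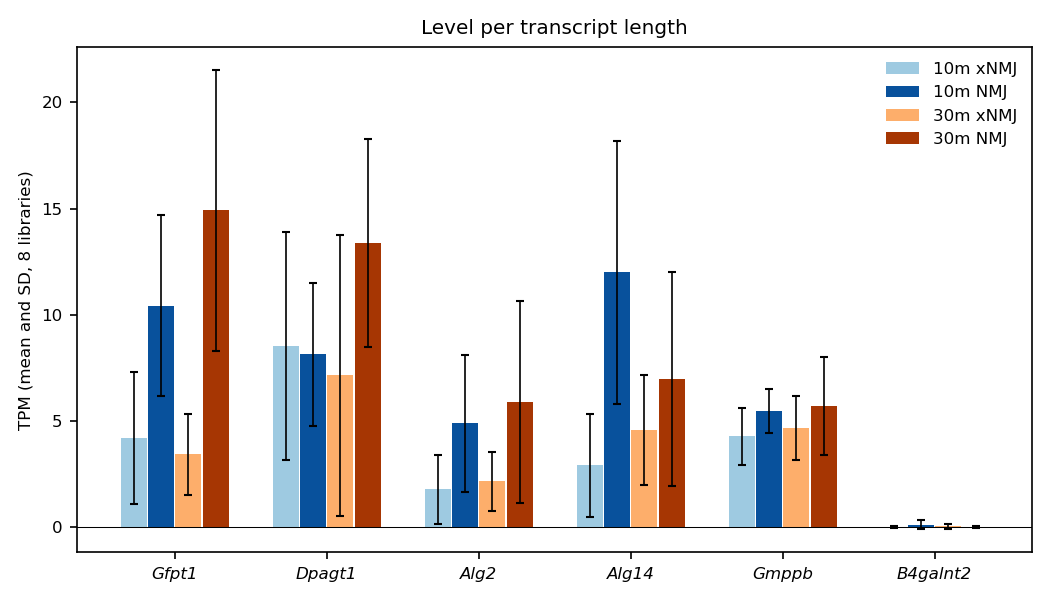
Mean TPM (vertical axis, from 0) of the 6 genes (horizontal axis) in the 4 groups, with SD over 8 libraries. Gfpt1 rises from the middle of the order in xNMJ to 10.4 TPM in 10m NMJ and 14.9 TPM in 30m NMJ, and B4galnt2 stays near 0. TPM carry no TMM factors. The median difference of all filtered genes between NMJ and xNMJ in log2(TPM + 1) was 0.41 at 10 months and 0.53 at 30 months.

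The scale of the libraries decides the sign of the small differences. The TMM factors had medians of 0.831 (xNMJ) and 1.21 (NMJ) at 10 months and of 0.765 (xNMJ) and 1.25 (NMJ) at 30 months, and with them the median log2 fold change of all genes was 0.00 at 10 months and -0.01 at 30 months. With library totals and no such factors, a setting chosen after seeing the data, the median of all genes moved to 0.56 and 0.61, and the share of called genes that were higher in NMJ changed, at 10 months from 56.3% to 92.7% and at 30 months from 54.1% to 97.3%. Gfpt1 passed under both scalings, at 1.74 and 1.93 with library totals. Against the shifted medians these values stand 1.18 and 1.32 higher. Dpagt1 at 10 months, Alg14 at 30 months and Gmppb at both ages turned from below to above 0 with library totals, without passing. Less the median of all genes, these values stayed below 0 with TMM factors and with library totals. They were -0.449 and -0.445 for Dpagt1 and -0.032 and -0.077 for Alg14. For Gmppb they were -0.150 and -0.142 at 10 months and -0.354 and -0.329 at 30 months.

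**Figure D4:**
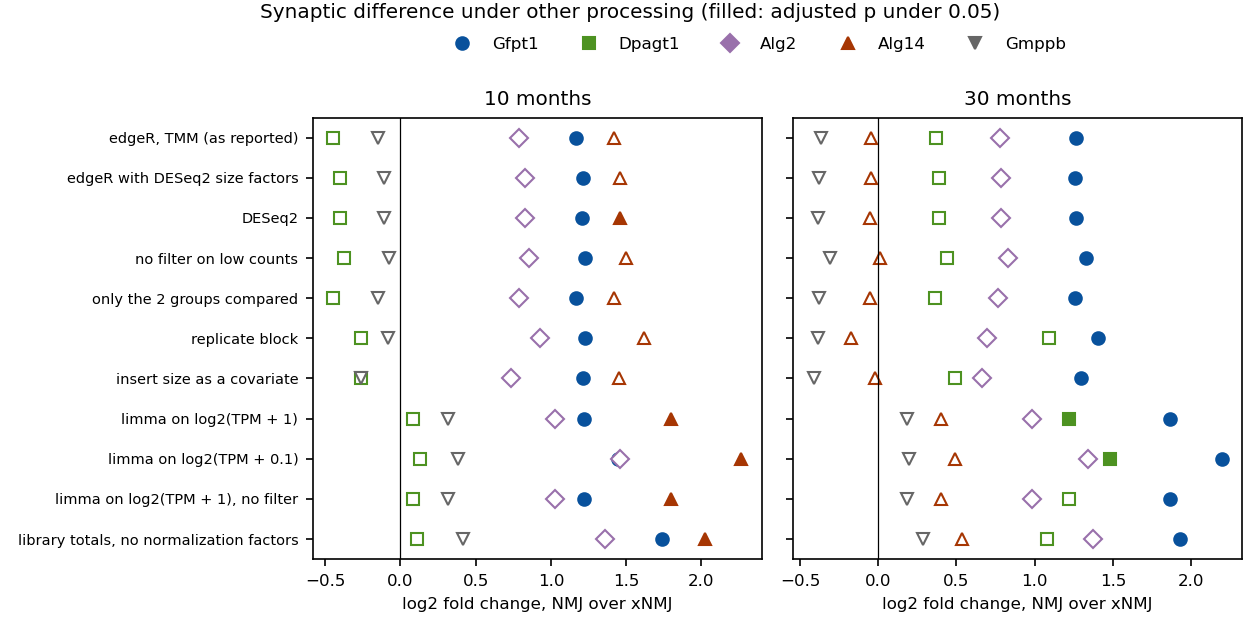
Log2 fold change between NMJ and xNMJ (horizontal axis) of the 5 tested genes at 10 months (left) and 30 months (right) under each setting (vertical axis); filled symbols have an adjusted p under 0.05. Gfpt1 is filled in all 11 settings at both ages, Alg14 in 5 at 10 months and Dpagt1 in 2 at 30 months. Where Alg14 or Dpagt1 is filled, more of all genes were also called higher in NMJ than in the reported fit.

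The wider pathway was described from 5 lists of genes. Of 75 tested genes, 8 were higher in NMJ at 10 months, where 6.5% of all genes were, and 6 at 30 months, where 5% were. Of the 75 genes 0 were lower at either age, beside 5.05% and 4.25% of all genes, and beside unadjusted p under 0.05 for 16 higher and 3 lower genes at 10 months and for 12 and 0 at 30 months, where 22.8% and 20.7% of all genes had one in either direction. The median log2 fold change was 0.28 and 0.34, beside 0.00 and -0.01 for all genes tested. These counts depended on the setting. With library totals 21 genes were higher at 10 months and 22 at 30 months, where 19.1% and 19.2% of all genes were, and with limma on log2(TPM + 1) of filtered genes 22 and 28 were, where 20.3% and 26.6% of all genes were. With insert size as a covariate the first was 5, where 5.01% of all genes were higher, and with only the 2 groups compared the second was 3, where 4.7% were. B4galnt3 and Mgat3, which are among the 8 genes, and B4galnt3, which is among the 6, passed the filter through NMJ libraries alone. The filter thus favoured a higher value in NMJ for them, so that their part in these counts is a description and no test. The other called genes were Gfpt1, Rpn2, Dad1, Gmppa, Dag1 and Fut8 at 10 months and Gfpt1, Rpn2, Ddost, Magt1 and Dag1 at 30 months. They had at least 1 CPM in 15 or 16 of the 16 xNMJ libraries.

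In the list of hexosamine and sialic acid supply, 1 of 14 genes passed, Gfpt1, at both ages (median log2 fold change 0.23 and 0.45). This stood beside 6.5% and 5% of all genes called higher. With limma or library totals 3 to 4 were higher at 10 months and 3 to 5 at 30 months. Of all genes, 8.97% to 20.6% and 12.3% to 27.2% were higher in those settings. Gfpt2, the paralog that catalyses the same step, had few reads, with means of 1.47 CPM (xNMJ) and 1.67 CPM (NMJ) at 10 months and of 1.59 CPM and 4.12 CPM at 30 months. Its log2 fold change was 0.20 ± 0.71 at 10 months and 1.38 ± 0.71 at 30 months, and neither passed (edgeR, adjusted p = 0.909 and 0.275).

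In the assembly of the dolichol-linked chain, which holds Dpagt1, Alg14 and Alg2, 0 of 21 tested genes passed at either age by edgeR. At 10 months 3 higher and 3 lower genes had an unadjusted p under 0.05, beside the 22.8% of all genes. DESeq2 called 1 as higher, the limma settings on TPM 2 to 3 and library totals 3, beside 8.78%, 8.97% to 20.6% and 19.1% of all genes. At 30 months 1 higher and 0 lower genes had an unadjusted p under 0.05, beside 20.7% of all genes. Here DESeq2 called 0 as higher, limma 3 to 4 and library totals 2, beside 6.73%, 12.3% to 27.2% and 19.2% of all genes. The medians were -0.15 and -0.04. Alg13, the partner of Alg14 in one enzyme, averaged 8.61 CPM outside the junction and 2.67 CPM at it at 10 months. This log2 fold change of -1.69 ± 0.75, opposite in sign to that of Alg14, did not pass (edgeR, adjusted p = 0.163). At 30 months both partners were near 0, with -0.04 ± 0.74 for Alg13.

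Of the 12 genes of oligosaccharyltransferase, which transfers the chain to proteins, 2 rose in NMJ at 10 months and 3 at 30 months. These stood beside 6.5% and 5% of all genes, and the list medians were 0.50 and 0.65. Rpn2, a structural subunit, rose at both ages, by a log2 fold change of 0.71 ± 0.22 (53.9 to 88.1 CPM, edgeR, adjusted p = 0.0313) and 0.78 ± 0.22 (45.7 to 78.6 CPM, adjusted p = 0.0192). Dad1, a small subunit, passed at 10 months with 1.53 ± 0.38 (40.5 to 117 CPM, edgeR, adjusted p = 0.00545). At 30 months Ddost passed with 1.38 ± 0.42 (12.3 to 31.95 CPM, edgeR, adjusted p = 0.0294), and so did Magt1, an oxidoreductase subunit, with 0.77 ± 0.22 (50.6 to 86.4 CPM, adjusted p = 0.0187). The count at 10 months was 1 with insert size as a covariate, where 5.01% of all genes were higher. It was 9 to 10 with limma or library totals. The count at 30 months was 0 with only the 2 groups compared, where 4.7% of all genes were higher. It was again 9 to 10 with limma or library totals. In these limma and library total settings 8.97% to 20.6% of all genes were higher at 10 months and 12.3% to 27.2% at 30 months. Rpn2 lost its call at 10 months in 7 of 32 fits without 1 library and at 30 months in 1 (without replicate 6 of 30m NMJ), and Ddost lost its call at 30 months in 5.

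Of 18 genes of GDP-mannose supply and dystroglycan O-mannosylation, 2 rose in NMJ at 10 months and 1 at 30 months. These stood beside 6.5% and 5% of all genes, and the list medians were -0.01 and 0.02. With limma or library totals 2 to 4 and 3 to 5 were higher, where 8.97% to 20.6% and 12.3% to 27.2% of all genes were. Dag1, which encodes dystroglycan itself, rose at both ages, by 0.51 ± 0.15 on the log2 scale (98.3 to 140 CPM, edgeR, adjusted p = 0.0218) and 0.72 ± 0.15 (81.9 to 135 CPM, adjusted p = 0.00147). The call of Dag1 at 10 months held in 7 of 10 other settings, and was lost with the replicate block (edgeR, adjusted p = 0.0739), with insert size, with only the 2 groups compared, and without replicate 5 (0.0641) or replicate 6 (0.0529) of 10m NMJ. Gmppa, the regulatory partner of Gmppb, rose at 10 months from 7.12 to 17.7 CPM, or by 1.32 ± 0.44 on the log2 scale (edgeR, adjusted p = 0.0438), a call that was lost in 12 of 32 fits without 1 library. At 30 months it was 0.45 ± 0.43 (edgeR, adjusted p = 0.619).

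Of the B4galnt family and N-glycan branching, 10 genes were tested. At 10 months 3 were called higher in NMJ, and 2 of these, B4galnt3 and Mgat3, had at least 1 CPM in 0 of the 16 xNMJ libraries and in 10 and 11 of the 16 NMJ libraries. They thus passed the filter through the region where they were high, and their reads are given as a description with no test. At 30 months the only gene called was B4galnt3. By the same test 6.5% of all genes were higher in NMJ at 10 months and 5% at 30 months. With limma or library totals 2 to 3 genes were called higher at 10 months and 4 to 5 at 30 months. Of all genes, 8.97% to 20.6% and 12.3% to 27.2% were higher there. Without 1 library 2 to 4 genes were called higher at 10 months and 1 to 3 at 30 months. B4galnt3, which like B4galnt2 transfers N-acetylgalactosamine, had 3 reads in 10m xNMJ and 147 in 10m NMJ, a ratio of 20.5 after normalisation (exact 95% counting interval 6.89 to 101). Of the 147 reads 67 came from replicate 3, without which the ratio was 12.4 (4.09 to 61.4). Replicates 2 and 6 of 10m NMJ held 0 reads and replicate 1 held 1. These intervals are on reads summed over libraries and do not cover the spread between libraries. At 30 months B4galnt3 had 11 and 297 reads, a ratio of 12.1 (6.65 to 24.5). Of the 11 xNMJ reads 10 came from replicate 5, the library with the raised synaptic marker sum, and without it the ratio, on 1 xNMJ read, was 98.9 (17.6 to 3920).

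Mgat3, which adds the bisecting GlcNAc, had no read in 10m xNMJ and 248 in 10m NMJ, from 2 to 70 per library. Against a floor of 3 counts over the xNMJ group the ratio of summed reads was 34.6, or 27.1 without replicate 2 of 10m NMJ. The floor covers counting error in xNMJ and not the spread between libraries. At 30 months Mgat3 had 20 and 170 reads, a ratio of 3.80 (2.39 to 6.38), or 2.42 (1.48 to 4.14) without replicate 6 of 30m NMJ. Fut8, the core fucosyltransferase, rose at 10 months from 26.8 to 50.6 CPM (log2 fold change 0.92 ± 0.28, edgeR, adjusted p = 0.0241), a call lost without replicate 4 of 10m xNMJ (0.0521) or replicate 8 of 10m NMJ (0.0764), and was at 0.65 ± 0.27 at 30 months (adjusted p = 0.149). B4galnt1, a ganglioside synthase, did not pass at either age (0.51 ± 1.21 and 1.89 ± 1.26, edgeR, adjusted p = 0.853 and 0.432), and B4galnt4 did not pass the filter.

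No gene of the 5 lists passed with age in NMJ or in xNMJ or in the interaction by edgeR. Unadjusted p under 0.05 were found for 3, 3 and 6 of the 75 genes in these 3 comparisons, and for 2.66%, 9.45% and 5.06% of all genes.

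**Figure D5:**
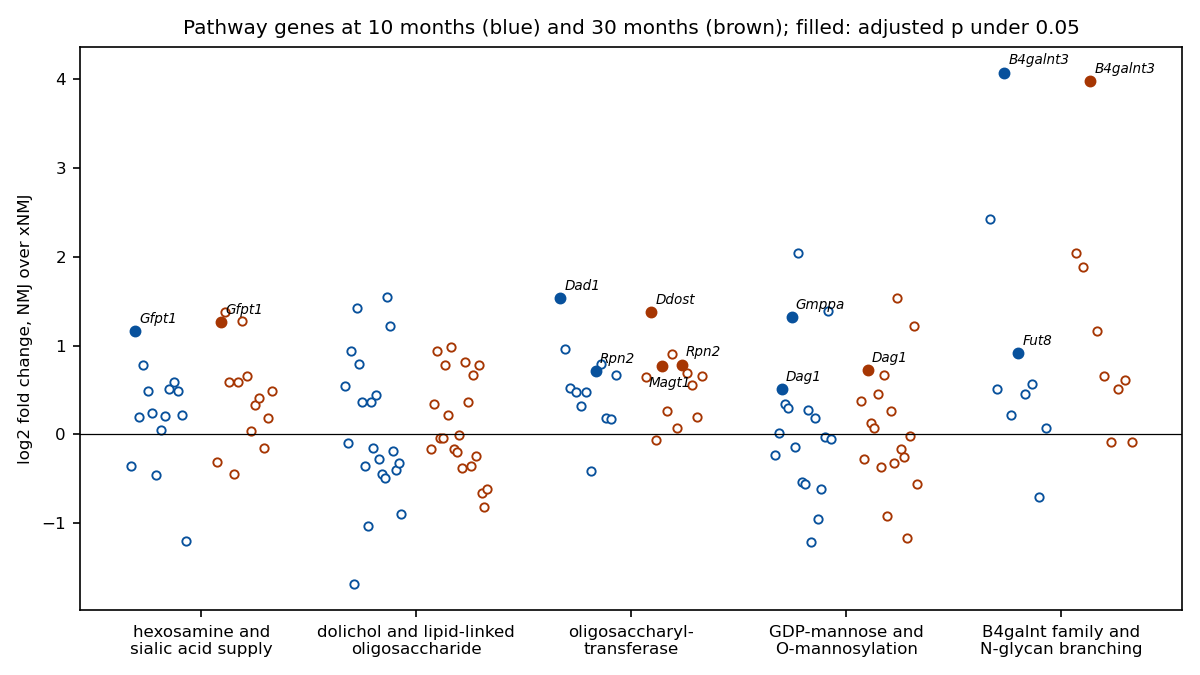
Log2 fold change between NMJ and xNMJ (vertical axis) of every tested gene of the 5 pathway lists (horizontal axis) at 10 months (blue) and 30 months (brown); filled, named points have an edgeR adjusted p under 0.05, and Mgat3, at 0 reads in 10m xNMJ, is left out at both ages. B4galnt3 passed the filter through NMJ libraries alone, so that its filled points are a description and no test. No filled point lies below 0, and the dolichol list has none.

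The genes nearest to Gfpt1 in pattern were sought by the root mean square difference of centred log2 CPM over the 32 libraries, which include the groups in which Gfpt1 differed. They were Hspa5, the endoplasmic reticulum chaperone BiP (0.570), Ripor2 (0.593) and Ank3, which encodes ankyrin-G (0.597), against a median of 1.31 over all genes. As the choice by likeness fixes their direction between regions, the values are a description. The log2 fold change between NMJ and xNMJ was 1.52 at 10 months and 1.29 at 30 months for Hspa5, 1.43 and 1.32 for Ripor2, and 1.15 and 1.58 for Ank3.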

How the data were processed

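RNA from captured NMJ and xNMJ regions was sequenced as single-end reads. The authors trimmed the reads with cutadapt 1.9.1 and assigned them with kallisto 0.43.1 (versions from the submitters' processing notes) to protein-coding transcripts of GRCm38, a read on n transcripts adding 1/n to each. The deposited counts, whole and not normalized, are the authors' sums over the transcripts of a gene. The deposited TPM were scaled by the authors for transcript length and library total.

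Groups came from the sample labels. R 4.3.3 and edgeR 4.0.16 served for the counts, with TMM scaling, 1 quasi-likelihood fit of the 4 groups and a filter of 1 CPM (by library total) in 8 libraries. P-values were two-sided and Benjamini-Hochberg adjusted over 13990 genes, with a threshold of 0.05. Printed CPM are counts on TMM-normalised library sizes, and library totals set the depth. As the reads carry no molecular identifiers, floors and counting intervals cover counting error only. Over 112 pairs of libraries of 1 group the lowest chi-squared per gene was 17.1, so no library was counted as a duplicate.

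The genes and lists were chosen with earlier results of these data known. Named were the 6 genes, list genes called in either region comparison (at most 5 per list and age) or with age, the partners Gfpt2, Alg13, Gmppa and B4galnt1, and the 3 genes nearest to a member called at both ages. Dolk, Alg10b and Mgat2 of the lists were not analysed here. One marker gene is not reported here by name. Positions came from GENCODE M21, start regions from RefSeq (3 of 6 genes matched).

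Other settings were DESeq2 1.42.0, edgeR with DESeq2 size factors, no filter, only the 2 groups compared, the replicate block, insert size as a covariate, limma 3.58.1 on log2(TPM + 1) or log2(TPM + 0.1) of genes with at least 1 TPM in 8 libraries, the former also unfiltered, and leaving out each library. Library totals without factors were added after seeing the data. The steps were tested on simulated data, where many planted changes did not pass, so that a gene that did not pass may still differ. Figures were drawn with matplotlib.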

Additional observations from a re-analysis of the deposited data

Results flagged for a closer look

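Of 24 sets of 8 libraries (6 genes in 4 groups), 7 held a library whose gap to its nearest neighbour passed Dixon's critical value of 0.526 of the range, and so did 5 of the 28 marker sums. For normally distributed values chance flags about 1 in 20, and whether these CPM were so distributed was not tested. Gfpt1 was highest in replicate 6 of 10m NMJ, at 63.1 CPM against 20.1 to 37.2 CPM in the others. Alg2 was highest in replicate 4 of 10m xNMJ, at 16.0 CPM against 1.12 to 6.95 CPM, and in replicate 5 of 30m NMJ, at 27.4 CPM against 1.60 to 12.4 CPM. For B4galnt2, 7 libraries were at 0 in 3 of the 4 groups, so that any read in the last one meets the criterion and these sets say nothing about an unusual library. Its highest values were 0.798 CPM in replicate 7 of 10m NMJ (14 reads), 0.236 CPM in replicate 3 of 10m xNMJ (1 read), 0.105 CPM in replicate 2 of 30m NMJ (1 read) and 0.481 CPM in replicate 7 of 30m xNMJ (2 reads).

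Among the marker sums, those of subsynaptic nuclei stood out at 861 CPM in replicate 5 of 30m xNMJ, at 174 CPM in replicate 7 of 10m xNMJ and at 5085 CPM in replicate 5 of 30m NMJ. The fibroblast sum was 1924 CPM in replicate 7 of 30m NMJ, and the macrophage sum 73.2 CPM in replicate 2 of 30m xNMJ. What set these libraries apart was not tested.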

How the results depend on the processing

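Gfpt1 kept its direction and an adjusted p under 0.05 between NMJ and xNMJ in all 10 other settings, with log2 fold changes of 1.16 to 1.74 at 10 months and 1.26 to 2.19 at 30 months. Genes called among the 5 went from 1 to 2 at 10 months, by Alg14, under DESeq2, the 3 limma settings on TPM and library totals (the last added after seeing the data), and from 1 to 2 at 30 months, by Dpagt1, under the 2 filtered limma settings. Without 1 library they numbered 1 to 2 at 10 months, 1 to 1 at 30 months, and 0 to 0 with age in either region and in the interaction. All genes called at 10 months moved from 1615 to 2862 (limma, TPM + 1), 2895 (TPM + 0.1) and 2877 (library totals), at 30 months from 1295 to 3496, 3569, 3033 (unfiltered TPM + 1) and 2767 in turn, with age in NMJ from 0 to 1 (DESeq2), 3 (TPM + 1) and 1 (unfiltered), with age in xNMJ from 6 to 84 (DESeq2), 2 (insert size) and 0 (only the 2 groups compared, the replicate block and the 3 limma settings), and in the interaction from 0 to 9 (DESeq2). Without 1 library these counts were 1433 to 1708, 1106 to 1475, 0 to 0, 0 to 9 and 0 to 1. The cause was not tested.

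Signs turned only for values that did not pass. Between regions, Dpagt1 at 10 months was 0.085 (TPM + 1, filtered or not), 0.13 (TPM + 0.1) and 0.11 (library totals). Alg14 at 30 months was 0.010 (no filter), 0.40, 0.49 and 0.54 (TPM + 1, TPM + 0.1, library totals). Gmppb was 0.32, 0.39 and 0.41 at 10 months and 0.18, 0.19 and 0.28 at 30 months in the same settings. With age, Gfpt1 in xNMJ was -0.18 (TPM + 1) and -0.25 (TPM + 0.1), Alg2 in NMJ -0.062 (insert size), and the interaction of Alg2 was 0.010 (library totals). Without 1 library, values ran from -0.16 to 0.28 for the Gfpt1 interaction, -0.64 to 0.027 for Dpagt1 with age in xNMJ, -0.38 to 0.29 and -0.088 to 0.66 for Alg2 with age in NMJ and xNMJ, -0.56 to 0.19 for its interaction, -0.22 to 0.11 for Alg14 at 30 months and -0.15 to 0.082 for Gmppb with age in NMJ.

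Same-numbered NMJ and xNMJ libraries had correlations of deviations of -0.02 to 0.37, with 5 of 16 over 0.1 and 8 of 16 best with their own number, a hint from the data. The study's methods describe both kinds of region as collected for each sample, without tying libraries to animals or numbers. As not every pair was over 0.1 and the labels name no shared animal, the block was kept as an alternative. With the replicate block, genes called among the 5 stayed at 1 at both ages, all genes called were 1829 and 1531, and those higher in the 5 lists went from 8 to 6 at 10 months, where Dag1 and B4galnt3 were lost, and stayed at 6 at 30 months. By median TPM in place of the mean, each gene moved by less than 1 SD, but neighbours changed places, with Alg14 (4.41) above Gmppb (4.31) in 30m xNMJ and Gmppb (6.29) above Alg2 (4.52) in 30m NMJ. B4galnt2 was left untested by the filter on low counts, and the 95% intervals of all 5 tested genes between regions span over 1 log2 unit.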
